A study of Homo sapiens with 32 samples.

Results

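The genes described here take up, store and export iron, or control those steps: SLC40A1, TFRC, TFR2, TF, HAMP, FTH1, FTL, HFE, SLC11A2 and IREB2. They were chosen by symbol among the 18402 gene symbols that the deposited probe table carries. Of these 10 genes, 9 had a probe (11 of 24526 probes), and all 9 passed the filter on dim signal, against 12973 genes tested in all. FTH1, the ferritin heavy chain, had no probe under that symbol and was not analysed here. HFE had 3 probes, of which 1 passed the filter, while the others were detected on 0 arrays.

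Messenger RNA was read on 32 one-colour bead arrays in 8 groups of 4, from the human liver tumour lines Huh7 (hepatocellular carcinoma) and HepG2 (hepatoblastoma). The treated groups were Huh7 with SAHA, HepG2 with SAHA, Huh7 with HDAC2 siRNA and HepG2 with HDAC2 siRNA. Their controls were the same line with DMSO, the solvent, or with scrambled siRNA. SAHA (vorinostat) inhibits histone deacetylases, and HDAC2 is a class I histone deacetylase. The labels state no dose, time or siRNA sequence. Each line is 1 established tumour line, and the SAHA and siRNA arrays form separate subsets of the series. Whether the 4 arrays within a group stand for separate cultures is not stated, so the p-values measure only the spread between arrays, which may be technical, and the number of arrays limits the precision.

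Iron reaches liver cells bound to transferrin (TF), which the transferrin receptors TFRC and TFR2 take into endosomes, and SLC11A2 (DMT1) carries the freed iron into the cytosol. Ferritin, built of FTL and FTH1 chains, stores it, and ferroportin (SLC40A1) is the exporter. Hepatocytes secrete hepcidin (HAMP), a peptide hormone that binds ferroportin protein at the cell surface and causes its degradation, while IREB2 (IRP2) binds iron-responsive elements in the messages of TFRC, ferritin and ferroportin when iron is low. The arrays read messages, not proteins.

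Promoters of the 2 members with the widest range of group means, HAMP and SLC40A1, and the ferritin stretch that IREB2 binds are shown here. The sequences are RefSeq's on GRCh38.p14, read 5′ to 3′ on the gene's strand. Of the 10 genes, 8 matched an entry in that table, and TFR2 and FTH1 did not. The promoters run over the 250 bases before the annotated start, at chr19:35282278-35282527 (plus strand) for HAMP and chr2:189580787-189581036 (minus strand) for SLC40A1. The FTL stretch of 30 bases lies at chr19:48965329-48965358 (plus strand), in the first 50 transcribed bases. Capitals mark motif letters in the promoters and the loop letters CAGTG in FTL.
HAMP: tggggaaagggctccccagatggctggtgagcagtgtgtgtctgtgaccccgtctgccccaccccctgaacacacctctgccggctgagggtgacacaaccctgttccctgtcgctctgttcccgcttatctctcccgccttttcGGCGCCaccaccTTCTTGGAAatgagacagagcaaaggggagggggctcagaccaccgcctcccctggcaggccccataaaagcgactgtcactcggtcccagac
SLC40A1: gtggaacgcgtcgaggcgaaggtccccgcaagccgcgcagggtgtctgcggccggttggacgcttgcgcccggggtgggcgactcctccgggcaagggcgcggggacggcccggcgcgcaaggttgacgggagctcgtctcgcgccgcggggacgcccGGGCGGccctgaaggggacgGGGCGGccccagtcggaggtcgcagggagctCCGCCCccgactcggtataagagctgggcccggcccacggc
FTL: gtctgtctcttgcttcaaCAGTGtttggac

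Both strands were searched for 5 motifs, and none of the matches overlapped another. The HAMP promoter held 1 GGCGCC, the letters known from its BMP-response element, at bases 105 to 100 before the start. It also held 1 TTCNNNGAA, the letters of a STAT site, at bases 93 to 85. Over all 35116 promoters of that length, 16.4% held GGCGCC and 6.57% held TTCNNNGAA. The SLC40A1 promoter held 3 copies of GGGCGG, the GC box, counting both strands, and 42.6% of all promoters held at least 1. Neither promoter held ACGTG, the core of a hypoxia-response element, in this window, against 18.5% of all promoters. Neither held TATAAA, the letters of a TATA box, against 10.7%. The search took exact letters only, so near matches such as cataaaa in HAMP and tataaga in SLC40A1 were not counted. CAGTG occurred in the first 50 transcribed bases of 6.48% of all promoter entries. These matches describe letters and not sites.

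The siRNA arrays carried their label's effect on HDAC2. HDAC2 had a log2 signal of 8.82, 8.62, 8.62 and 8.73 on Huh7 HDAC2 siRNA arrays, against 12.10, 12.06, 12.02 and 12.00 on scrambled arrays. In HepG2 it had 7.87, 7.77, 8.22 and 7.72 with HDAC2 siRNA, against 10.89, 11.12, 10.79 and 10.97 with scrambled siRNA. HDAC2 message was thus 10.2-fold lower in Huh7 (limma, adjusted p = 3.52e-21) and 8.26-fold lower in HepG2 (adjusted p = 2.15e-19). All 12 liver lineage markers were tested, and 11 or 12 of them were detected on all 4 arrays of each group. Detected probes made up 48.3% to 54.9% of each array.

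Differences are of mean log2 signal after background correction and quantile normalization, from 1 limma model over all 32 arrays, with standard errors (SE) and p-values adjusted by Benjamini-Hochberg over the 12973 genes. An adjusted p under 0.05 counted as a call. With SAHA, 7 of the 9 iron genes were called in Huh7, 3 higher and 4 lower, where 60.7% of all genes were called (31.6% higher and 29.1% lower). In HepG2, 5 of 9 were called with SAHA, 2 higher and 3 lower, against 54.5% of all genes (26.9% higher and 27.6% lower). HDAC2 siRNA gave 4 of 9 in Huh7, 2 higher and 2 lower, against 45.3% (22.9% higher and 22.4% lower). In HepG2 it also gave 4 of 9, 1 higher and 3 lower, against 36.6% (18.8% higher and 17.9% lower). With 9 members, these counts lie near the shares of all genes and say nothing particular about iron genes as a group.

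The median log2 difference of the 9 genes was -0.08 with SAHA in Huh7 and -0.05 in HepG2, against 0.01 and -0.01 over all genes. For HDAC2 siRNA it was 0.02 in Huh7 and -0.11 in HepG2, against -0.01 and 0.01. The sizes of the differences had a median of 0.49 over the members and 0.48 over all genes with SAHA in Huh7, and 0.31 and 0.39 with SAHA in HepG2. The corresponding values for HDAC2 siRNA were 0.45 and 0.30 in Huh7, and 0.32 and 0.26 in HepG2.

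**Figure D1:**
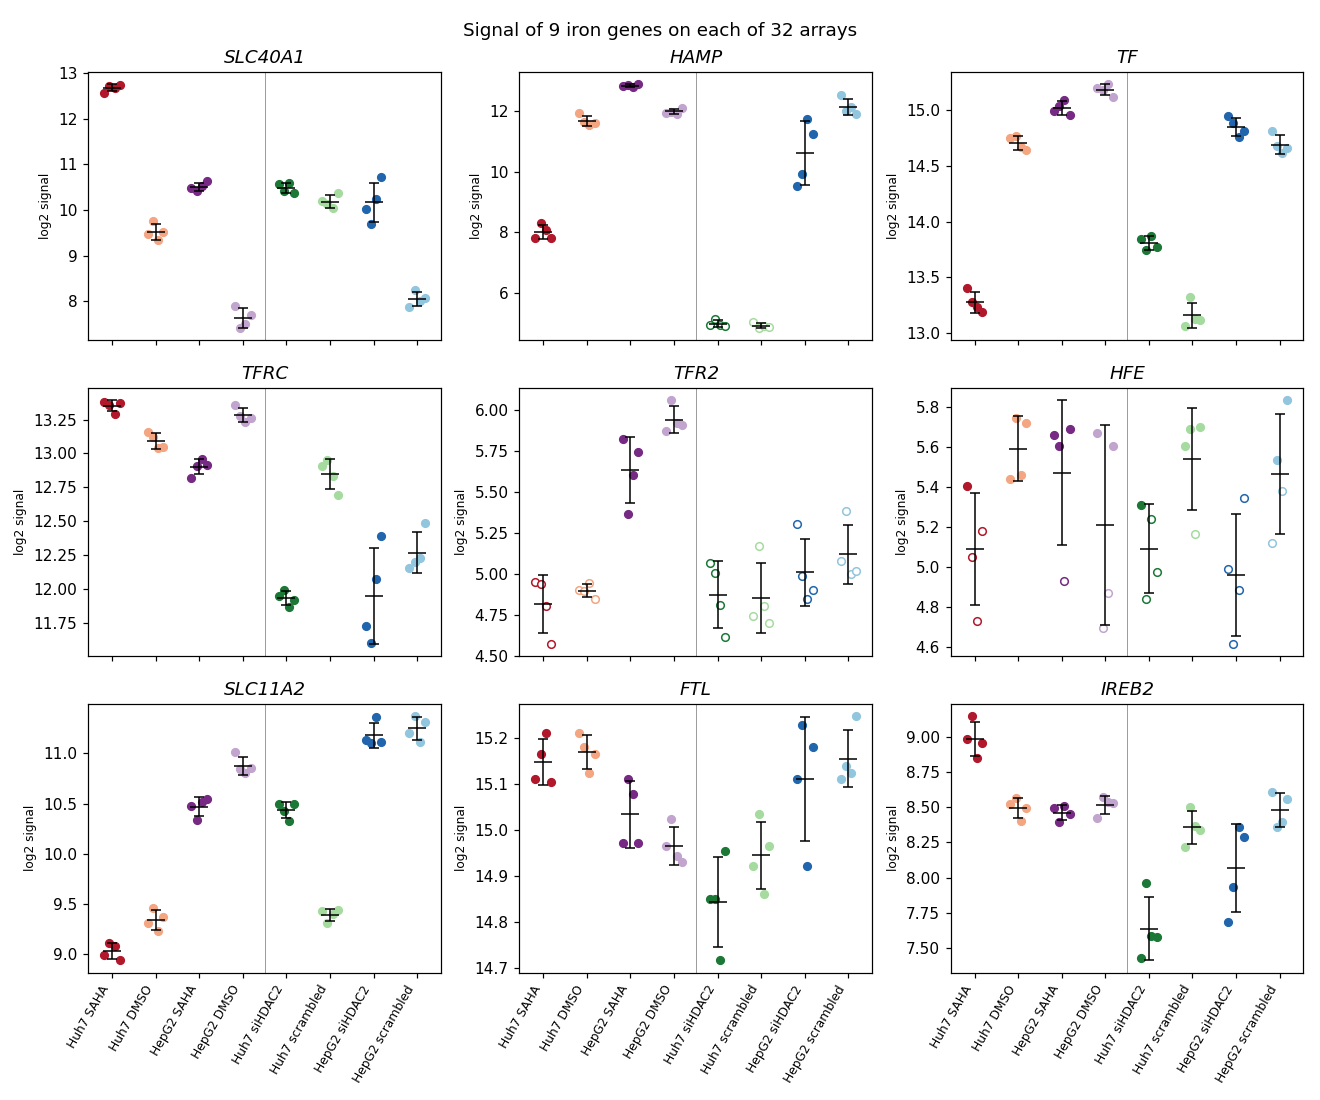
Log2 signal (vertical axes, a scale per gene) of the 9 iron genes with a probe on each of 32 arrays, by group along the horizontal axis; filled points were detected above background, open points were not, and black bars are the mean and SD of 4 arrays. SLC40A1 is highest on the Huh7 SAHA arrays, at 12.57 to 12.75, and HAMP is not detected on any Huh7 array of the siRNA subset.

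SLC40A1, the iron exporter, was higher with SAHA in both lines and higher with HDAC2 siRNA in HepG2. Its log2 signal was 12.57, 12.72, 12.68 and 12.75 on Huh7 SAHA arrays, against 9.47, 9.75, 9.34 and 9.53 on Huh7 DMSO arrays. Every SAHA array lay above every DMSO array, and non-overlap of this kind held for 55% of all genes and for 7 of the 9 iron genes in this comparison. The difference was 3.16 ± 0.14 (SE, n = 4 each), or 8.92-fold (limma, adjusted p = 2.6e-18).

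In HepG2, SLC40A1 had 10.47, 10.42, 10.53 and 10.63 with SAHA, against 7.90, 7.42, 7.50 and 7.71 with DMSO. The groups again did not overlap, as for 6 of the 9 iron genes and 52.3% of all genes. SLC40A1 was 7.37-fold higher, a difference of 2.88 ± 0.14 (limma, adjusted p = 2.62e-17). Leukocyte markers moved with this comparison: the summed signal of the 7 tested of 10 listed was 8066 to 8329 on HepG2 SAHA arrays and 1297 to 1371 on HepG2 DMSO arrays. PTPRC, CD3E and ITGAM, which mark leukocytes in general, T cells and macrophages, did not pass the filter, and CSF1R and MS4A1 were detected on 0 DMSO arrays. In Huh7 the sum was 1105 to 1412 with SAHA and 3893 to 4416 with DMSO. Endothelial markers (3 tested of 5) summed to 207 to 241 with SAHA and 111 to 128 with DMSO in HepG2, where CDH5 and VWF were detected on 0 DMSO arrays. PECAM1 went the other way in HepG2, with a mean log2 signal of 5.75 with SAHA and 6.05 with DMSO. The endothelial sum in Huh7 was 106 to 133 with SAHA and 140 to 163 with DMSO. Fibroblast and stellate markers (6 tested of 7) summed to 3859 to 4115 with SAHA and 2809 to 3195 with DMSO in HepG2, and to 656 to 734 and 305 to 393 in Huh7. The brightest in HepG2 were ACTA2 (mean log2 11.62 with SAHA, 11.35 with DMSO) and PDGFRB (9.44 and 7.88). COL1A2, LUM and DCN were detected on 0 arrays of either HepG2 group. PDGFRB went the other way in Huh7, at 4.93 with SAHA and 5.30 with DMSO. Of the erythroid list 1 of 5 was tested, with 95.6 to 104 on Huh7 HDAC2 siRNA arrays and 31.8 to 43.6 on scrambled arrays. The part of these markers in the iron gene results was not tested.

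With HDAC2 siRNA, SLC40A1 separated the lines. In HepG2 its log2 signal was 10.03, 9.70, 10.23 and 10.72 with HDAC2 siRNA, against 7.88, 8.25, 8.01 and 8.08 with scrambled siRNA. The lowest treated array stood well above the highest scrambled one, where 26.5% of all genes and 3 of the 9 iron genes did not overlap. SLC40A1 was 4.34-fold higher there, by 2.12 ± 0.14 (limma, adjusted p = 7.29e-13). The treated arrays spread more (SD 0.43, against 0.15 on scrambled arrays), which this SE, pooled over all groups, understates. In Huh7 SLC40A1 had 10.57, 10.43, 10.58 and 10.37 with HDAC2 siRNA, against 10.19, 10.12, 10.05 and 10.37 with scrambled siRNA. Those groups overlapped at 10.37, and the difference of 0.30 (95% interval 0.02 to 0.59) was not called (limma, adjusted p = 0.0808), though 2 of 19 alternatives called it, at adjusted p-values down to 0.0221. The HDAC2 siRNA effect on SLC40A1 was larger in HepG2 by 1.81 ± 0.20 (limma, adjusted p = 2.1e-08), and the SAHA effect differed between HepG2 and Huh7 by -0.28 (95% interval -0.68 to 0.13, adjusted p = 0.261). Without background correction that SAHA line difference was -0.67 and called (limma, adjusted p = 0.000337).

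HAMP, the hormone that acts on ferroportin, went in opposite directions with SAHA in the lines. On Huh7 SAHA arrays its log2 signal was 7.81, 8.32, 8.07 and 7.83, against 11.94, 11.64, 11.55 and 11.61 on Huh7 DMSO arrays. The groups were far apart, and HAMP fell by 3.68 on the log2 scale (SE 0.26), which is 12.8-fold lower (limma, adjusted p = 1.9e-13). In HepG2 it had 12.84, 12.87, 12.81 and 12.91 with SAHA, against 11.97, 12.00, 11.93 and 12.12 with DMSO. All 4 SAHA arrays there were above all DMSO arrays, by 0.85 ± 0.26 or 1.81-fold (limma, adjusted p = 0.00664). The SAHA effect in HepG2 minus that in Huh7 was 4.53 ± 0.37 (limma, adjusted p = 1.14e-11).

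Liver lineage markers moved with HAMP in Huh7: the summed signal of the 12 was 49939 to 52806 on SAHA arrays and 86957 to 92670 on DMSO arrays. In HepG2 it was 160935 to 171215 with SAHA and 167005 to 178913 with DMSO. On the siRNA arrays it was 60326 to 73618 with HDAC2 siRNA and 74459 to 82860 with scrambled siRNA in Huh7, and 117005 to 131530 and 130347 to 134953 in HepG2. These sums weigh bright markers most, and single markers went either way with HDAC2 siRNA. In Huh7, APOA1, HNF4A, FOXA2, AMBP, TTR (mean log2 9.90, scrambled 9.23) and SERPINA1 (11.04, scrambled 9.98) were higher with it. In HepG2, APOA1, AHSG, AMBP, TTR (11.97, scrambled 10.97) and FGB (7.65, scrambled 5.61) were higher. The remaining markers of the 12 had lower means. The part of the liver lineage markers in the HAMP and TF results was not tested. Because each array reads the RNA of a whole culture, fewer cells with a transcript and less of it per cell cannot be told apart.

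In the siRNA subset, HAMP was measurable in HepG2 only. It had 9.55, 9.92, 11.77 and 11.25 on HepG2 HDAC2 siRNA arrays, against 12.54, 12.01, 12.14 and 11.92 on scrambled arrays. Every treated array was lower, yet the treated arrays spread widely (SD 1.06, against 0.28 on scrambled arrays). The mean fell by 1.53 on the log2 scale (SE 0.26), or 2.89-fold (limma, adjusted p = 2.78e-05). This SE pools the spread of all groups in the model, so it understates the spread of the treated arrays. Leaving out 1 array at a time gave -1.91 to -1.17 (limma, adjusted p up to 0.000288). Over all 18 alternatives the limma adjusted p rose as far as 0.0237, and the call was kept. In Huh7 the signal was 4.96, 5.15, 4.94 and 4.91 with HDAC2 siRNA and 5.03, 4.85, 4.92 and 4.88 with scrambled siRNA. None of those 8 arrays gave HAMP a signal above background, so no fold is given, and the fitted line difference of -1.60 (limma, adjusted p = 0.000963) compares HepG2 with a gene at background in Huh7.

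**Figure D2:**
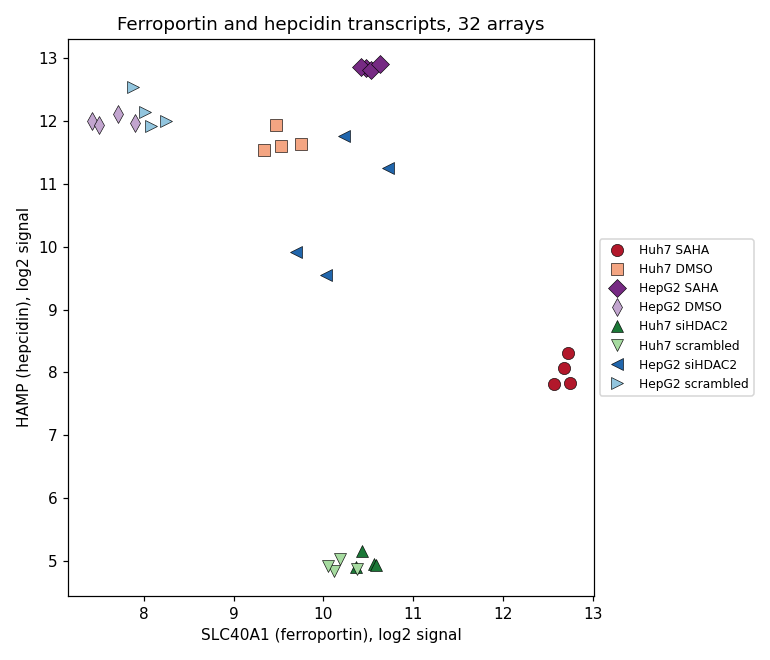
HAMP log2 signal (vertical axis) against SLC40A1 log2 signal (horizontal axis) for 32 arrays, with a symbol and colour for each of 8 groups. Huh7 SAHA arrays lie at high SLC40A1 (12.57 to 12.75) with HAMP at 7.81 to 8.32, HepG2 SAHA arrays have the highest HAMP (12.81 to 12.91), and the Huh7 arrays of the siRNA subset form a row at background for HAMP.

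The control arrays of Huh7 also differed in HAMP between the subsets. HAMP averaged 11.68 ± 0.18 on Huh7 DMSO arrays (SD, n = 4), where all 4 detected it, and Huh7 scrambled arrays averaged 4.92 ± 0.08, where none did. HepG2 controls lay close together, at 12.00 ± 0.08 with DMSO and 12.15 ± 0.28 with scrambled siRNA. On scrambled arrays HepG2 was at least 113-fold higher than Huh7 (limma, adjusted p = 4.26e-21), a bound that holds for background-corrected signal, since no Huh7 array detected HAMP. Without background correction the log2 difference was 4.96, below that bound. On DMSO arrays the difference between HepG2 and Huh7 was 0.32 (95% interval -0.22 to 0.86) and was not called (adjusted p = 0.312), but it was called when only those 8 arrays were fitted (adjusted p = 0.0208). Within Huh7, the subset and the kind of control cannot be told apart.

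TF, the plasma iron carrier, was lower with SAHA and higher with HDAC2 siRNA in Huh7. Its log2 signal was 13.41, 13.28, 13.24 and 13.19 on Huh7 SAHA arrays, against 14.74, 14.77, 14.66 and 14.64 on Huh7 DMSO arrays. Separation was complete, and TF fell by 1.42 on the log2 scale (SE 0.08), 2.68-fold lower (limma, adjusted p = 2.15e-16). With HDAC2 siRNA it had 13.85, 13.74, 13.87 and 13.77 in Huh7, against 13.07, 13.32, 13.13 and 13.12 with scrambled siRNA. Here too the groups did not overlap, which held for 46% of all genes and 4 of the 9 iron genes in this comparison. TF was 1.57-fold higher, by 0.65 ± 0.08 (limma, adjusted p = 2.83e-08), and by 0.38 when each array was scaled to one median (adjusted p = 0.0109). The Huh7 controls had unlike TF levels, with a mean of 14.70 on DMSO arrays and 13.16 on scrambled arrays. The opposite directions thus start from different levels, and subset and kind of control cannot be told apart.

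HepG2 kept TF high in every group, between 14.61 and 15.23 on its 16 arrays. With SAHA it had 14.98, 15.03, 15.09 and 14.96, against 15.19, 15.18, 15.23 and 15.11 with DMSO. The groups did not overlap, but the difference of -0.16 ± 0.08 was not called (limma, adjusted p = 0.0737). It was called in 2 of 19 alternatives, without background correction (adjusted p = 0.0301) and when the test was limited to genes that all 32 arrays detected (adjusted p = 0.0473). With HDAC2 siRNA in HepG2 the arrays gave 14.94, 14.88, 14.76 and 14.81, against 14.81, 14.68, 14.61 and 14.65 with scrambled siRNA. These overlapped, and the difference of 0.16 was not called (adjusted p = 0.107), though it was without background correction (adjusted p = 0.0482). When arrays were scaled to a common median, without quantile normalization, it was 0.67 (limma, adjusted p = 4.17e-05). The SAHA effect on TF in HepG2 minus that in Huh7 was 1.26 ± 0.11 (limma, adjusted p = 3.18e-11).

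TFRC, the main transferrin receptor, was lower in 3 of the 4 comparisons and showed its largest difference with HDAC2 siRNA in Huh7. On Huh7 HDAC2 siRNA arrays its log2 signal was 11.95, 11.99, 11.87 and 11.91, against 12.91, 12.95, 12.83 and 12.69 on scrambled arrays. No array of one group reached the other, and TFRC fell by 0.92 on the log2 scale (SE 0.11), 1.89-fold lower (limma, adjusted p = 4.07e-08). In HepG2 it had 11.73, 11.60, 12.08 and 12.39 with HDAC2 siRNA, against 12.15, 12.20, 12.23 and 12.49 with scrambled siRNA. The treated arrays spread (SD 0.36) and the highest lay within the scrambled range. The difference of -0.32 ± 0.11 was called (limma, adjusted p = 0.0236), but 5 of 19 alternatives lost the call, among them leaving out HDAC2 siRNA array 1 (-0.25, adjusted p = 0.0965) or array 2 (-0.20, adjusted p = 0.146), or scrambled array 4 (-0.25, adjusted p = 0.107).

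With SAHA, TFRC had 12.82, 12.91, 12.96 and 12.92 in HepG2, against 13.35, 13.28, 13.23 and 13.26 with DMSO. Each SAHA array was below each DMSO array, with a difference of -0.38 ± 0.11, 1.30-fold lower (limma, adjusted p = 0.0042). Huh7 had 13.38, 13.36, 13.29 and 13.37 with SAHA, against 13.15, 13.12, 13.04 and 13.05 with DMSO. Here the SAHA arrays were the higher ones, by 0.26 ± 0.11 (limma, adjusted p = 0.0433), and this call was lost in 9 of 19 alternatives. Scaling each array to one median left 0.02 (adjusted p = 0.917), and leaving out SAHA array 1, 2 or 4 or DMSO array 2, 3 or 4 left 0.24 to 0.27 (adjusted p = 0.0566 to 0.0898). The line difference of the SAHA effect, -0.64 ± 0.16, was called (limma, adjusted p = 0.000963), as was that of the HDAC2 siRNA effect, 0.60 ± 0.16 (adjusted p = 0.00306).

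TFR2, the second transferrin receptor, which also takes part in hepcidin control, was detected on 8 arrays, all of HepG2 in the SAHA subset. It had 5.82, 5.37, 5.60 and 5.74 with SAHA, against 5.87, 6.06, 5.92 and 5.91 with DMSO. The SAHA arrays lay just below the DMSO arrays, and the difference of -0.31 ± 0.12 was called (limma, adjusted p = 0.0379) but was lost in 7 of 18 alternatives. Among them, leaving out SAHA array 2 or 3 or DMSO array 2, 3 or 4 gave -0.32 to -0.22 (adjusted p = 0.0537 to 0.169). On DMSO arrays TFR2 was at least 1.52-fold higher in HepG2 than in Huh7, which did not detect it (limma, adjusted p = 1.27e-08). Without background correction that log2 difference was 0.35 (adjusted p = 9.55e-06), below the bound. The probe passed the filter only through its HepG2 arrays, so these p-values add no support for a difference between the lines. The other 3 treatment comparisons had no detected array in either group, so no fold is given.

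HFE, which meets transferrin receptors at the cell surface, was near background throughout, between 4.62 and 5.83, and was detected on 16 of 32 arrays. It had 5.40, 5.05, 4.73 and 5.18 with SAHA in Huh7, where 1 of 4 arrays detected it, against 5.44, 5.75, 5.46 and 5.72 with DMSO, where all 4 did. The groups were adjacent without overlapping, and the difference of -0.50 ± 0.21 was called (limma, adjusted p = 0.0371). It was lost in 6 of 18 alternatives, among them leaving out SAHA array 2 or 3 or DMSO array 2 or 4, with -0.49 to -0.38 (adjusted p = 0.0675 to 0.141). Neither siRNA comparison called HFE, with differences of -0.45 in Huh7 (limma, adjusted p = 0.0786) and -0.51 in HepG2 (adjusted p = 0.0548), nor did SAHA in HepG2 (0.26, adjusted p = 0.307). The Huh7 siRNA difference was called with median scaling (-0.51, limma, adjusted p = 0.0382), when only its 8 arrays were fitted (adjusted p = 0.0201) and without scrambled array 3 (-0.57, adjusted p = 0.0339). With the replicate number as a block, HFE was called in both lines (adjusted p = 0.0426 in Huh7 and 0.0294 in HepG2). Called too was the HepG2 difference without HDAC2 siRNA array 4 (-0.64, adjusted p = 0.0245) or scrambled array 1 (-0.62, adjusted p = 0.0286).

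SLC11A2, the endosomal iron transporter DMT1, was higher with HDAC2 siRNA in Huh7 and lower with SAHA in both lines. Its log2 signal was 10.49, 10.43, 10.33 and 10.50 on Huh7 HDAC2 siRNA arrays, against 9.42, 9.30, 9.39 and 9.44 on scrambled arrays. The groups stood apart with little spread in either, and SLC11A2 was 2.06-fold higher, by 1.05 ± 0.08 (limma, adjusted p = 9.21e-12). HepG2 had 11.13, 11.11, 11.36 and 11.12 with HDAC2 siRNA, against 11.21, 11.37, 11.11 and 11.31 with scrambled siRNA. These overlapped, and the difference was -0.07 (95% interval -0.24 to 0.10, adjusted p = 0.553). The HDAC2 siRNA effect in HepG2 minus that in Huh7 was -1.12 ± 0.12 (limma, adjusted p = 1.02e-08).

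With SAHA, SLC11A2 had 8.99, 9.11, 9.07 and 8.93 in Huh7, against 9.31, 9.45, 9.22 and 9.36 with DMSO. In HepG2 it had 10.47, 10.34, 10.52 and 10.55 with SAHA, against 11.01, 10.85, 10.81 and 10.85 with DMSO. In each line all SAHA arrays were lower. SLC11A2 fell by 0.31 in Huh7 (limma, adjusted p = 0.00176) and by 0.41 in HepG2 (adjusted p = 0.000102) on the log2 scale, both SE 0.08. Scaled to one median per array, the differences were -0.68 and -0.79, while the median of all genes moved to -0.13 in Huh7 and -0.17 in HepG2, leaving -0.55 and -0.61 relative to it.

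FTL, the ferritin light chain, was called in none of the 4 treatment comparisons (limma at an adjusted p under 0.05, and unadjusted p-values of 0.193 to 0.776). Its log2 signal ran from 14.72 to 15.25 over the 32 arrays with a median of 15.09. In Huh7 the differences were -0.02 with SAHA (95% interval -0.18 to 0.13) and -0.10 with HDAC2 siRNA (-0.26 to 0.05). In HepG2 they were 0.07 with SAHA (-0.09 to 0.22) and -0.05 with HDAC2 siRNA (-0.20 to 0.11).

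The FTL probe lay at rank 4 to 46 by signal on its arrays, where quantile normalization gives all arrays nearly the same values. The deposited intensity before normalization was 46019, 49228, 42343 and 50133 on HepG2 HDAC2 siRNA arrays, against 30357, 30326, 29626 and 32436 on scrambled arrays. All treated arrays were thus brighter for FTL before normalization, but its rank by signal did not separate the groups. FTL ranked 13, 5, 30 and 8 on the treated arrays, against 13, 11, 12 and 4 on the scrambled ones. Scaled to one median per array, FTL was 0.66 higher with HDAC2 siRNA in HepG2 (limma, adjusted p = 4.27e-05) and 0.32 lower in Huh7 (difference -0.32, adjusted p = 0.0264). The direction of FTL in HepG2 therefore depends on the scaling, as does the size of the TF difference there.

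IREB2, the iron-regulatory protein that is degraded when iron is plentiful, was lower with HDAC2 siRNA in both lines and higher with SAHA in Huh7. It had 7.43, 7.96, 7.58 and 7.58 on Huh7 HDAC2 siRNA arrays, against 8.22, 8.50, 8.37 and 8.34 on scrambled arrays. All treated arrays were lower, with a fall of 0.72 on the log2 scale (SE 0.12, limma, adjusted p = 6.63e-06). HepG2 had 7.69, 7.93, 8.36 and 8.29 with HDAC2 siRNA, against 8.61, 8.36, 8.39 and 8.56 with scrambled siRNA. The treated arrays were spread (SD 0.32) and only just cleared the scrambled ones. Treated arrays 1 and 2 gave the lowest values, as they did for HAMP, TFRC and SLC40A1 in HepG2, so these differences are not independent. For SLC40A1 in HepG2 these were the treated arrays nearest the scrambled ones. IREB2 fell by 0.41 there (limma, adjusted p = 0.00612), a call lost when only these 8 arrays were fitted (adjusted p = 0.0939).

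On Huh7 SAHA arrays IREB2 had 8.99, 9.15, 8.85 and 8.96, against 8.53, 8.57, 8.40 and 8.49 on DMSO arrays. The SAHA arrays were all higher, by 0.49 ± 0.12 (limma, adjusted p = 0.000598). Scaled to one median per array the difference was 0.16 (adjusted p = 0.348), or 0.28 relative to the median of all genes. In HepG2 the difference with SAHA was -0.05 (95% interval -0.29 to 0.19, adjusted p = 0.733), and -0.43 with median scaling (limma, adjusted p = 0.00792), or -0.26 relative to the median of all genes. The line difference of the SAHA effect on IREB2 was -0.54 ± 0.17 (limma, adjusted p = 0.00704).

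**Figure D3:**
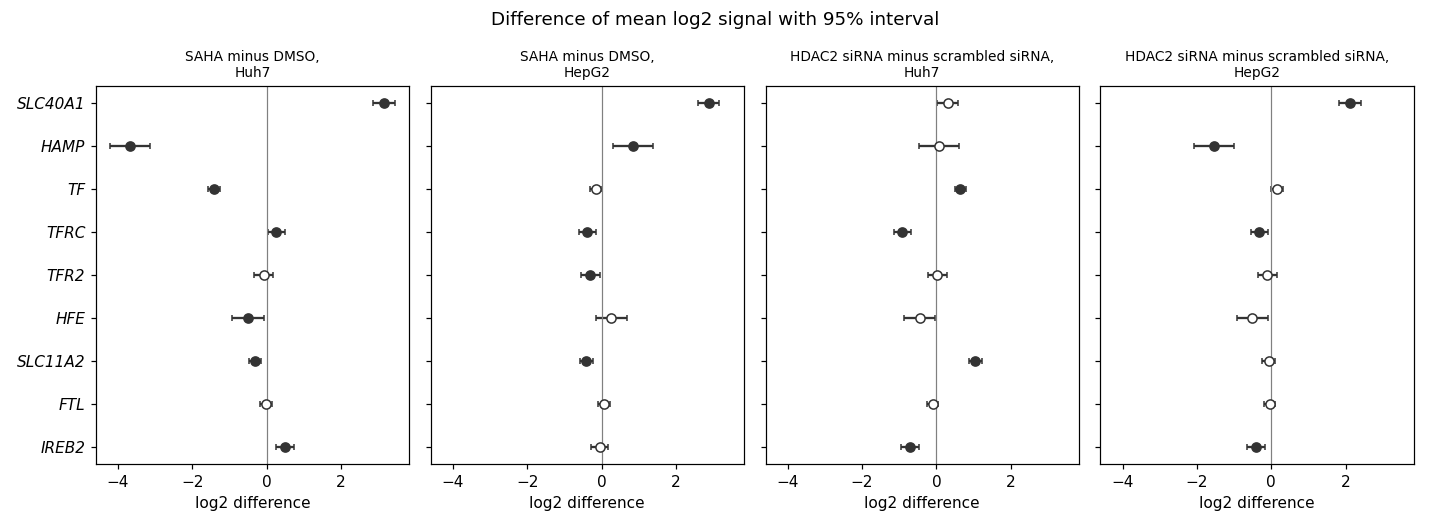
Difference of mean log2 signal, treated minus control (horizontal axes), for 9 iron genes (rows) in the 4 treatment comparisons (panels), with 95% intervals from the limma model; filled points were called at an adjusted p under 0.05. SLC40A1 is at 3.16, 2.88 and 2.12 in the comparisons that called it, and HAMP is at -3.68, 0.85 and -1.53 where it was called.

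Between the lines, the SAHA effect differed for 5 of the 9 iron genes (TFRC, TF, HAMP, HFE and IREB2), where 52.2% of all genes differed. The HFE difference, 0.76 ± 0.29 (limma, adjusted p = 0.0299), lost its call when any of 8 arrays was left out (0.59 to 0.72, adjusted p = 0.0534 to 0.0897), namely Huh7 SAHA 3, Huh7 DMSO 2 or 4, HepG2 SAHA 1, 2 or 4 and HepG2 DMSO 2 or 3. The HDAC2 siRNA effect differed for SLC40A1, TFRC, TF, HAMP and SLC11A2, again 5 of 9, against 37.2% of all genes. The TF difference for HDAC2 siRNA, -0.49 ± 0.11 (limma, adjusted p = 0.000609), turned to 0.30 with median scaling (adjusted p = 0.189).

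Between the treatments in Huh7, 6 of 9 iron genes had a SAHA effect that differed from the HDAC2 siRNA effect, against 54.8% of all genes. SLC40A1 (2.85 ± 0.20), TFRC (1.18 ± 0.16) and IREB2 (1.21 ± 0.17) had the higher value with SAHA. TF (-2.07 ± 0.11), SLC11A2 (-1.36 ± 0.12) and HAMP (-3.75 ± 0.37) had the lower one, with HAMP at background in the siRNA arrays. Their limma adjusted p-values ran up to 2.77e-07. In HepG2, 5 of 9 differed, against 48.7% of all genes. HAMP (2.38 ± 0.37), SLC40A1 (0.76 ± 0.20) and HFE (0.77 ± 0.29) had the higher value with SAHA, and TF (-0.32 ± 0.11) and SLC11A2 (-0.34 ± 0.12) the lower one. SLC40A1 lost this call with median scaling (0.38, limma, adjusted p = 0.187), and SLC11A2 without HDAC2 siRNA array 3 (-0.28, adjusted p = 0.05). Median scaling gave -0.82 for TF and -0.84 for SLC11A2. HFE lost it without any of 7 arrays (0.59 to 0.72, adjusted p = 0.0557 to 0.0913), namely SAHA 1, 2 or 4, DMSO 2 or 3, HDAC2 siRNA 2 and scrambled 4. The treatments belong to separate subsets with controls of their own.

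Control arrays of the lines differed in 5 of 9 iron genes on DMSO, against 60% of all genes, and in 6 of 9 on scrambled siRNA, against 66.3%. SLC40A1 was lower in HepG2 than in Huh7, with differences of -1.89 ± 0.14 on DMSO arrays (limma, adjusted p = 4.59e-13) and -2.13 ± 0.14 on scrambled arrays (adjusted p = 2.06e-14). SLC11A2 was higher in HepG2, by 1.54 and 1.86, and so was TF, by 0.47 and 1.53. FTL differed by -0.20 on DMSO arrays (limma, adjusted p = 0.0221) and by 0.21 on scrambled arrays (adjusted p = 0.0168), opposite signs that both lost their call with median scaling. The first was also lost without Huh7 DMSO array 1 (-0.19, adjusted p = 0.0539) or HepG2 DMSO array 4 (-0.19, adjusted p = 0.0518), and the second without Huh7 scrambled array 3 (0.18, adjusted p = 0.0577) or HepG2 scrambled array 4 (0.18, adjusted p = 0.0583). TFRC was lower in HepG2 on scrambled arrays, with a difference of -0.58 ± 0.11 (limma, adjusted p = 3.02e-05), and the 0.19 on DMSO arrays was not called (adjusted p = 0.141).

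Over all 8 groups, the means of SLC40A1 ran from 12.68 on Huh7 SAHA arrays through 10.51 (HepG2 SAHA), 10.49 (Huh7 HDAC2 siRNA), 10.18 (Huh7 scrambled), 10.17 (HepG2 HDAC2 siRNA), 9.52 (Huh7 DMSO) and 8.05 (HepG2 scrambled) to 7.63 (HepG2 DMSO). Neighbours from the second to the sixth place overlapped in their arrays, and so did the last 2. For HAMP the order was HepG2 SAHA at 12.85, HepG2 scrambled at 12.15, HepG2 DMSO at 12.00, Huh7 DMSO at 11.68, HepG2 HDAC2 siRNA at 10.62, Huh7 SAHA at 8.01, and both Huh7 siRNA groups at background. The second to the fifth overlapped as neighbours. The range of group means was 7.94 for HAMP, 5.05 for SLC40A1, 2.22 for SLC11A2, 2.02 for TF, 1.42 for TFRC, 1.35 for IREB2, 1.12 for TFR2, 0.63 for HFE and 0.33 for FTL. All 7 neighbouring pairs of groups overlapped for FTL and for HFE.

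Likeness of pattern was measured as the root mean square difference of the 8 group means, after taking off each gene's own mean. GPAM (1.17), LOX (1.29) and AHSG (1.48) were most like HAMP, where the median over all genes was 3.09. For SLC40A1 they were UBE2E2 (0.49), EVI5L (0.59) and MYLIP (0.60), against a median of 1.53. AP1G2 (0.22), APOE (0.22) and PLEKHA7 (0.25) were most like SLC11A2, against 0.95. These genes were picked for the smallest values, so lying under the median was fixed by the choice. On Huh7 HDAC2 siRNA arrays GPAM and LOX were near background, with means of 5.13 and 4.92.

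Other genes of iron handling were followed as 4 lists. Of 20 tested genes of hepcidin control, which carry the BMP and interleukin signals to the HAMP promoter, 5 were higher and 8 lower with SAHA in Huh7, and 10 were higher and 1 lower with SAHA in HepG2. HDAC2 siRNA gave 10 higher and 4 lower in Huh7, and 3 higher and 4 lower in HepG2. Over all genes, 31.6% were called higher and 29.1% lower with SAHA in Huh7, 26.9% and 27.6% in HepG2, 22.9% and 22.4% with HDAC2 siRNA in Huh7, and 18.8% and 17.9% in HepG2. The medians of the list in that order were -0.14, 0.45, 0.36 and 0.00, against 0.01, -0.01, -0.01 and 0.01 over all genes.

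CEBPA, a liver transcription factor that binds the HAMP promoter, fell by 2.56 on the log2 scale with SAHA in Huh7 (SE 0.10, limma, adjusted p = 6.44e-20), and its difference of 0.21 in HepG2 was not called (adjusted p = 0.0726). HJV (hemojuvelin), the BMP co-receptor, was detected on Huh7 DMSO arrays but not with SAHA, and was at least 3.87-fold lower (limma, adjusted p = 7.74e-14). In HepG2 it was detected with SAHA but not with DMSO, and was at least 1.50-fold higher (adjusted p = 3.96e-08). SMAD6, an inhibitor of BMP signalling, fell by 2.06 in Huh7 (adjusted p = 3.61e-13) and was higher by 1.51 in HepG2 (adjusted p = 5.04e-10). Several genes of the list were higher with SAHA in both lines. The part of any gene of the list in the HAMP results was not tested, for SAHA or for HDAC2 siRNA. BMP6, a BMP ligand that raises hepcidin, was higher by 2.40 in Huh7 (limma, adjusted p = 2.13e-10), where 1 of 4 DMSO arrays detected it, and at least 5.93-fold higher in HepG2 (adjusted p = 2.52e-12), where no DMSO array did. STAT3, the factor of the interleukin arm, was higher by 1.42 in Huh7 (limma, adjusted p = 4e-12) and 1.18 in HepG2 (adjusted p = 3.13e-10). NEO1, a hemojuvelin-binding receptor, was higher by 1.70 in Huh7 (adjusted p = 1.44e-12) and 0.86 in HepG2 (adjusted p = 1.81e-06). The inhibitor SMAD7 was higher by 1.39 in HepG2 (adjusted p = 1.4e-10), with a difference of -0.06 in Huh7 that was not called (adjusted p = 0.717).

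With HDAC2 siRNA, CEBPA fell by 1.18 in HepG2 (limma, adjusted p = 7.3e-11), and its difference of -0.21 in Huh7 was not called (adjusted p = 0.0854). STAT3 fell by 1.25 in Huh7 (adjusted p = 1.89e-10) and by 0.87 in HepG2 (adjusted p = 5.76e-07). HJV, detected on no treated array of either line, was at least 2.64-fold lower in Huh7 (limma, adjusted p = 3.92e-11) and at least 1.09-fold lower in HepG2 (adjusted p = 0.000376). NEO1 was higher by 0.38 in Huh7 (adjusted p = 0.0201) and 0.88 in HepG2 (adjusted p = 3.97e-06). The BMP ligand BMP2 was higher by 1.50 with HDAC2 siRNA in Huh7 (limma, adjusted p = 4.9e-12) and fell by 1.46 with SAHA there (adjusted p = 2.3e-12), while no HepG2 array of these comparisons detected it. ID1, a BMP target gene, fell by 1.21 with HDAC2 siRNA in Huh7 (adjusted p = 5.91e-11), with a difference of 0.15 in HepG2 that was not called (adjusted p = 0.276).

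**Figure D4:**
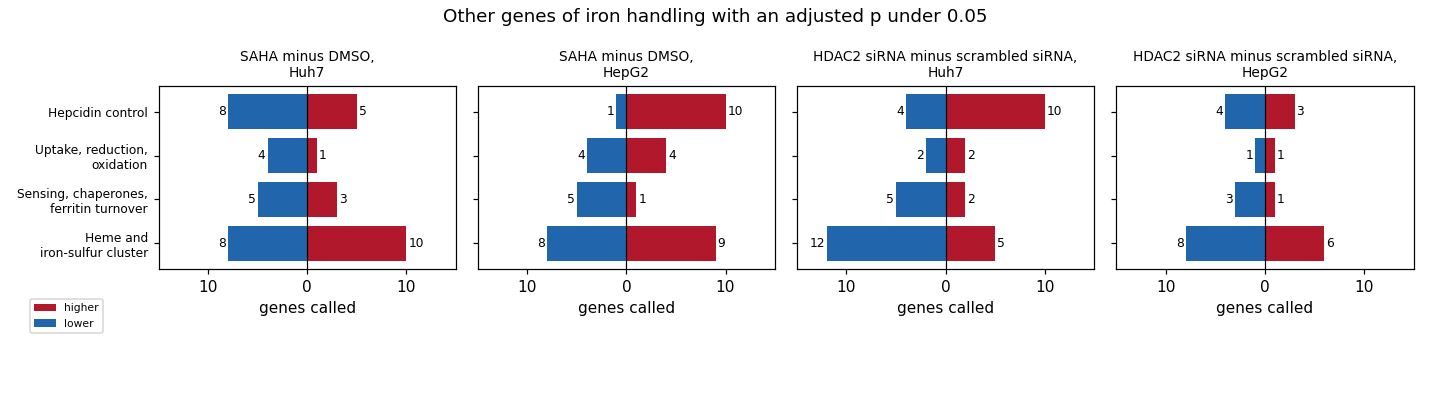
Number of genes called higher (right, red) and lower (left, blue) at a limma adjusted p under 0.05 (horizontal axes) in 4 lists of iron handling (rows) and the 4 treatment comparisons (panels). Hepcidin control has 10 higher and 1 lower with SAHA in HepG2, and 5 higher and 8 lower with SAHA in Huh7.

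Of the list on uptake, reduction and oxidation of iron, 11 of 18 genes were tested. It gave 1 higher and 4 lower with SAHA in Huh7, and 4 and 4 in HepG2. With HDAC2 siRNA it gave 2 higher and 2 lower in Huh7, and 1 and 1 in HepG2. The share of all genes called in those comparisons was 60.7%, 54.5%, 45.3% and 36.6%. By direction, 31.6% were higher and 29.1% lower with SAHA in Huh7, and 26.9% and 27.6% in HepG2. For HDAC2 siRNA the shares were 22.9% and 22.4% in Huh7, and 18.8% and 17.9% in HepG2. HPX (hemopexin), the plasma heme carrier, was lower with SAHA, with differences of -2.73 in Huh7 (limma, adjusted p = 9.04e-20) and -1.99 in HepG2 (adjusted p = 2.04e-16). STEAP3, the endosomal reductase that works between TFRC and SLC11A2, fell by 1.43 with SAHA in Huh7 (limma, adjusted p = 2.68e-12) and was higher by 1.12 with HDAC2 siRNA there (adjusted p = 1.72e-09). SLC39A14, a transporter of iron not bound to transferrin, was lower with SAHA, with differences of -0.74 in Huh7 (adjusted p = 5.31e-08) and -0.57 in HepG2 (adjusted p = 6.24e-06). CP (ceruloplasmin), the oxidase that loads exported iron onto transferrin, fell by 1.95 with SAHA in HepG2 (limma, adjusted p = 2.31e-10). LCN2, which binds iron-carrying siderophores, was at least 3.04-fold higher there (adjusted p = 4.94e-17). Haptoglobin (HP), the carrier of free hemoglobin, fell by 1.70 with HDAC2 siRNA in HepG2 (adjusted p = 2.66e-07) and was higher by 1.07 with SAHA in HepG2 (adjusted p = 9.32e-05).

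Iron sensing, chaperones and ferritin turnover had 9 of 10 genes tested, with 3 higher and 5 lower with SAHA in Huh7, and 1 higher and 5 lower in HepG2. HDAC2 siRNA gave 2 higher and 5 lower in Huh7, and 1 higher and 3 lower in HepG2. These stand against the same shares of all genes, 60.7% and 54.5% with SAHA and 45.3% and 36.6% with HDAC2 siRNA. Of all genes, 31.6% were higher and 29.1% lower with SAHA in Huh7, and 26.9% and 27.6% in HepG2. For HDAC2 siRNA the shares were 22.9% and 22.4% in Huh7, and 18.8% and 17.9% in HepG2. The iron chaperones PCBP2 and PCBP1 fell by 0.79 (limma, adjusted p = 1.42e-09) and 0.77 (adjusted p = 2.02e-09) with SAHA in Huh7, and PCBP2 by 0.59 in HepG2 (adjusted p = 4.65e-07). FBXL5, which marks IREB2 protein for degradation, fell by 0.80 with SAHA in HepG2 (adjusted p = 1.73e-06) and was higher by 0.54 with SAHA in Huh7 (adjusted p = 0.000337). With HDAC2 siRNA it was higher, by 0.55 in Huh7 (limma, adjusted p = 0.000451) and 0.51 in HepG2 (adjusted p = 0.0014). EPAS1, the hypoxia factor HIF-2α, whose message carries an iron-responsive element, was lower with HDAC2 siRNA, with differences of -1.43 in Huh7 (adjusted p = 3.05e-13) and -1.10 in HepG2 (adjusted p = 3.27e-10). With SAHA it was -1.06 in Huh7 (limma, adjusted p = 7.25e-11) and 0.87 in HepG2 (adjusted p = 5.61e-09). NCOA4, the receptor that takes ferritin to the lysosome, fell by 0.26 with HDAC2 siRNA in HepG2 (adjusted p = 0.0171) and was higher by 0.37 with SAHA in Huh7 (adjusted p = 0.000373). With HDAC2 siRNA in HepG2 the iron-regulatory protein ACO1 fell by 0.52 (adjusted p = 0.000572).

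Of 28 heme and iron-sulfur cluster genes, 25 were tested. With SAHA 10 were higher and 8 lower in Huh7, and 9 and 8 in HepG2, and with HDAC2 siRNA 5 were higher and 12 lower in Huh7, and 6 and 8 in HepG2. Of all genes, 60.7%, 54.5%, 45.3% and 36.6% were called in these comparisons. Higher and lower calls took 31.6% and 29.1% with SAHA in Huh7, and 26.9% and 27.6% in HepG2. For HDAC2 siRNA they took 22.9% and 22.4% in Huh7, and 18.8% and 17.9% in HepG2. ABCB10, a mitochondrial transporter needed for heme synthesis, was lower with SAHA, with differences of -1.16 in Huh7 (limma, adjusted p = 3.1e-10) and -1.91 in HepG2 (adjusted p = 4.52e-15). BLVRB, a biliverdin reductase, was higher by 2.02 with SAHA in HepG2 (adjusted p = 2.35e-15), and BLVRA by 0.75 with HDAC2 siRNA in HepG2 (adjusted p = 2.42e-08).

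Of the 20 calls on the 9 iron genes in the treatment comparisons, 14 held in every alternative that gave a value. They were SLC40A1, TF, HAMP and SLC11A2 with SAHA in Huh7, and SLC40A1, TFRC, HAMP and SLC11A2 with SAHA in HepG2. With HDAC2 siRNA they were TFRC, TF, SLC11A2 and IREB2 in Huh7, and SLC40A1 and HAMP in HepG2.

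**Figure D5:**
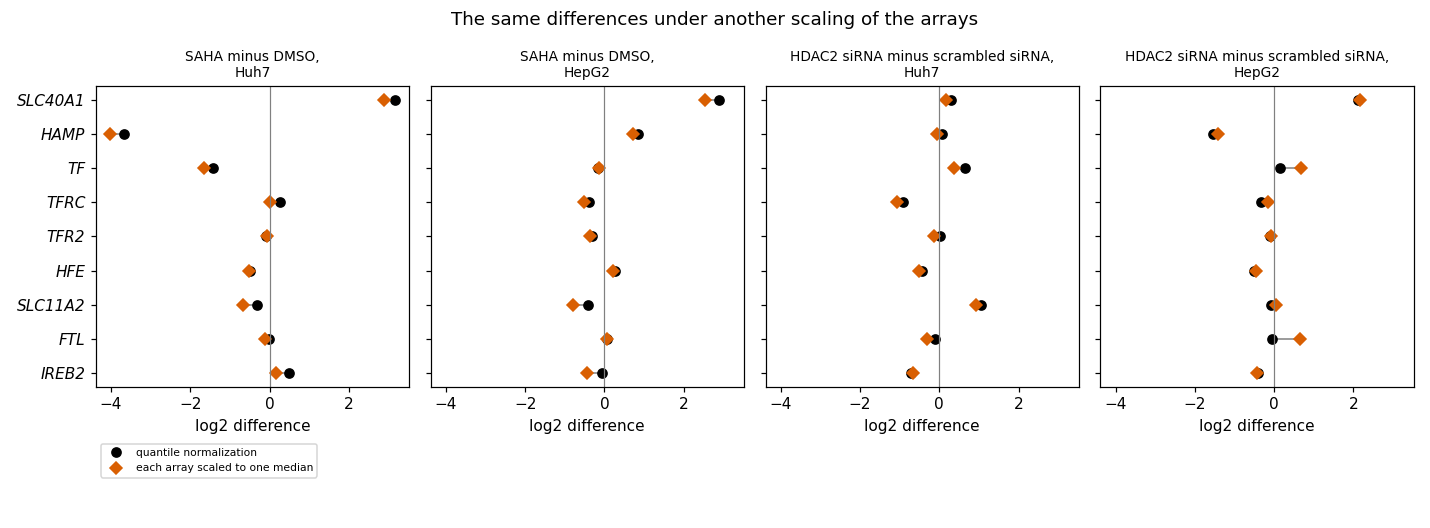
The log2 differences of the 9 iron genes (rows) in the 4 treatment comparisons (panels), treated minus control (horizontal axes), with quantile normalization (black circles) and with each array scaled to one median (orange diamonds). TF and FTL in HepG2 with HDAC2 siRNA move furthest to the right, to 0.67 and 0.66, while SLC40A1 and HAMP keep their sign wherever they were called.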

How the data were processed

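The authors deposited linear probe intensities that were not background-subtracted and, per the file headers, a detection p-value for each probe and array. They also deposited a table of normalized intensities, used as an alternative. GenomeStudio 2011.1 is named in the submitters' processing notes. The build behind the authors' probe annotation was not given, and the promoter sequences are RefSeq's on GRCh38.p14. The limma package 3.58.1 (R 4.3.3) was used, with the background estimated from the detection p-values (normexp, offset 16), and the log2 values computed from these deposited intensities quantile-normalized over 32 arrays. Probes entered with a detection p under 0.05 on at least 4 arrays (16121 probes), and the brightest probe stood for a gene (12973 genes). Older symbols of 3265 probes were updated. One limma model of 8 group means (24 residual degrees of freedom, 5.78 from the prior) gave every contrast, two-sided, with Benjamini-Hochberg adjustment over all genes. Where no array of a group detected a probe, "at least" folds raise its signal to the lowest detected one (5.21 to 5.54 on the log2 scale), a bound for background-corrected signal only. The fit was tested on simulated data. No 2 arrays held identical values. The iron genes and the 4 lists were chosen with earlier results of these data known. Named are all members, up to 4 genes per list and comparison with the smallest adjusted p, and the 3 genes most like each of the 3 members with the widest range. Alternatives changed the background correction, its offset, the scaling, the detection filter, the arrays in the fit and the replicate block, took the authors' processed values, or left out each array in turn.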

Additional observations from a re-analysis of the deposited data

Results flagged for a closer look

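HFE on HepG2 SAHA array 3 had a log2 signal of 4.93, while the other 3 arrays of its group lay between 5.61 and 5.69. SLC11A2 on HepG2 HDAC2 siRNA array 3 had 11.36, while the others lay between 11.11 and 11.13. In both cases the gap to the nearest array took up most of the group's range (0.89 and 0.901). These were 2 of 72 groups checked, and chance flags about 1 in 20 such groups.

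Effects that differed between the lines by the limma test of the difference itself, HepG2 effect minus Huh7 effect, were as follows. With SAHA, HAMP differed by 4.53 (adjusted p = 1.14e-11), TF by 1.26 (adjusted p = 3.18e-11), TFRC by -0.64 (adjusted p = 0.000963), IREB2 by -0.54 (adjusted p = 0.00704) and HFE by 0.76 (adjusted p = 0.0299). With HDAC2 siRNA, SLC40A1 differed by 1.81 (adjusted p = 2.1e-08), SLC11A2 by -1.12 (adjusted p = 1.02e-08), TF by -0.49 (adjusted p = 0.000609), HAMP by -1.60 (adjusted p = 0.000963) and TFRC by 0.60 (adjusted p = 0.00306). HAMP was at background on the Huh7 arrays of the HDAC2 siRNA contrast.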

How the results depend on the processing

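Scaling each array to one median moved the median of all genes to -0.13 with SAHA in Huh7 and -0.17 in HepG2, and the share of higher calls to 39.1% and 32.3%, against 52% and 49.4% with quantile normalization. For the SAHA effect minus the HDAC2 siRNA effect those shares were 41.6% against 53% in Huh7 and 31.6% against 49.7% in HepG2, with a median of -0.21 in HepG2. Signs turned under this scaling for HDAC2 siRNA in Huh7 (TFR2 -0.13, HAMP -0.070), HDAC2 siRNA in HepG2 (FTL 0.66, SLC11A2 0.055), the line difference of the HDAC2 siRNA effect (TFR2 0.044, TF 0.30, HFE 0.052), and the SAHA effect minus the HDAC2 siRNA effect (TFR2 0.053 in Huh7, FTL -0.59 and IREB2 -0.013 in HepG2). Of these, TF had been called before, and FTL was called after (limma, adjusted p = 4.27e-05 and 0.00329). Testing only genes detected on all 32 arrays, which leaves out HAMP, HFE and TFR2, gave 4396 genes and 3 iron genes for the line difference of the SAHA effect, 5584 genes between the lines on scrambled arrays, and 3 iron genes for SAHA minus HDAC2 siRNA in HepG2. Fitting only the arrays of a comparison gave 2971 genes and 2 iron genes for HDAC2 siRNA in HepG2, and 3 iron genes for SAHA minus HDAC2 siRNA there. The cause was not tested.

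Leaving out 1 array at a time turned signs only among differences that were not called. Their ranges were -0.12 to 0.0015 for TFR2 with SAHA in Huh7, -0.045 to 0.12 for TFR2 with HDAC2 siRNA in Huh7, and -0.085 to 0.018 for FTL with HDAC2 siRNA in HepG2. For the SAHA effect minus the HDAC2 siRNA effect they were -0.16 to 0.074 for HFE in Huh7 and -0.18 to 0.085 for TFRC in HepG2. The line difference of the HDAC2 siRNA effect on HFE ran from -0.19 to 0.068. HepG2 minus Huh7 ran from -0.013 to 0.049 for IREB2 on DMSO arrays and from -0.20 to 0.041 for HFE on scrambled arrays.

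Same-numbered arrays of compared groups correlated at -0.14 to 0.26 in their deviations from group means, so the numbers were not taken as a pairing, and not every array correlated best with its own number. With the replicate number as a block, 7, 5, 5 and 5 iron genes and 7817, 7035, 5776 and 4605 genes were called in the 4 treatment comparisons, in the order of the report. The block added HFE with HDAC2 siRNA (adjusted p = 0.0426 in Huh7, 0.0294 in HepG2) and lost SLC11A2 for SAHA minus HDAC2 siRNA in HepG2 (adjusted p = 0.0512). It changed no other call on an iron gene, and no blocked fit was made between the lines.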
